A study of Mus musculus with 6 samples.

Results

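The inflammasome genes described here are the 10 genes Nlrp3, Nlrp1a, Nlrp1b, Nlrc4, Naip2 and Naip5 (sensors), Pycard (adaptor), Casp1 and Casp4 (caspases) and Gsdmd (pore-forming protein). They were taken from the table of raw counts by matching Ensembl identifiers to mouse symbols, and all 10 were found among its 55401 genes. The libraries came from CD11b+ microglia sorted magnetically from brains of untreated MRL/lpr and untreated MRL/mpj mice. MRL/lpr is a lupus model that carries the lpr mutation of Fas in every cell, and MRL/mpj is its control strain on the MRL background. Whether the strains differ in sequence elsewhere was not analysed, and the part of the lpr mutation in any strain difference was not tested. All mice were 6 weeks old, and each strain gave 3 libraries. The labels number the libraries without saying whether each came from a separate animal, so the p-values measure the spread between these libraries.

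An inflammasome is a cytosolic protein complex that assembles when a sensor detects microbial products or cell damage. NLRP3 senses many forms of membrane and ion disturbance, NLRP1 proteins sense proteolytic attack, and NAIP proteins bind bacterial flagellin or secretion system parts and then recruit NLRC4. The adaptor ASC, encoded by Pycard, links sensors to caspase-1, which matures IL-1β and IL-18 and cleaves gasdermin D. Caspase-11, encoded in the mouse by Casp4, binds cytosolic lipopolysaccharide directly and also cleaves gasdermin D, whose fragments form pores in the plasma membrane. In brain, microglia are a main site of NLRP3 activity.

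The libraries held between 45481609 and 49846634 counts. Counts piled up at multiples of 4 (in each library, between 1138 and 1288 genes had 4 counts, against 320 to 415 genes with 3 counts), so a read pair appears to be worth 4 counts and low counts rest on few pairs. In MRL/lpr replicate 3 a single noncoding RNA, CT010467.1, took 6.38% of the counts, against at most 0.457% elsewhere. Mitochondrial genes took 3.06% to 3.49% of the MRL/lpr counts and 5.84% to 6.38% of the MRL/mpj counts. Xist had 8886 to 11319 counts in MRL/lpr and 27 to 38 counts in MRL/mpj, although the study's methods describe female mice. The libraries of the strains may thus differ in sex as well. Sex and strain could then not be told apart in any difference given below, and the part of sex was not tested. Fas itself had 461, 282 and 298 counts in MRL/lpr and 426, 432 and 362 counts in MRL/mpj (adjusted p = 0.887 by edgeR), so its count per gene does not check the strain labels. All 10 microglia markers were detected, with a summed level of 21957 to 25047 CPM (counts scaled to a common library size by TMM) in MRL/lpr and 26282 to 26896 CPM in MRL/mpj. Of these markers, 3 were lower and none higher.

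Markers of other cells were also present. Of 9 T and NK cell markers, 6 were higher in MRL/lpr, with a summed level of 19.6 to 25.1 CPM against 5.46 to 6.84 CPM. Of 10 neutrophil markers, 4 were higher, and the sum of all 10 was 1509 to 1689 CPM against 1470 to 1504 CPM. The largest part of this sum was Csf3r, at 757 to 807 CPM against 842 to 886 CPM. Csf3r was the only one of the 10 with a negative log2 fold change (-0.15), so the sum understates the difference of the others. Of 10 monocyte markers, 4 were higher and 2 were lower, with sums of 144 to 176 CPM against 187 to 197 CPM. Border macrophages had 2 lower markers of 8, neurons 2 lower of 7, oligodendrocytes 1 lower of 7 and astrocytes 1 lower of 6, while endothelium had 2 higher of 6 and B cells none called among 4 tested. Markers are called higher or lower at an adjusted p under 0.05 by edgeR, as were 11.1% and 9.06% of all genes tested. No marker was at 0 in all libraries. The part of these cells in the differences below was not tested. In bulk RNA, fewer cells of a type and less RNA per cell cannot be told apart.

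The inflammasome genes did not move in a single direction. Scaled counts of the sensors Nlrp3, Nlrp1b and Naip2 and of Casp4 were higher in MRL/lpr. Those of the adaptor Pycard were 2.95-fold lower, and Nlrp1a had almost none. Of the 10 genes, 4 were higher and 2 were lower at an adjusted p under 0.05 by edgeR's quasi-likelihood test, adjusted after Benjamini and Hochberg over 19554 genes, and 4 (Nlrc4, Naip5, Casp1 and Gsdmd) did not pass. Among all genes tested, 11.1% were higher and 9.06% were lower by the same rule, 20.2% in either direction. Where the log2 fold change had also to be 1 or more in size, 2 of the 10 were higher (Nlrp3 and Casp4) and 2 were lower (Nlrp1a and Pycard), against 4.67% and 3.66% of all genes (8.34% in either direction). The 3 libraries of each strain did not overlap in 7 of the 10 genes, against 39.0% of all genes tested. The median log2 fold change of the 10 genes was 0.53, and that of all genes was -0.01.

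**Figure D1:**
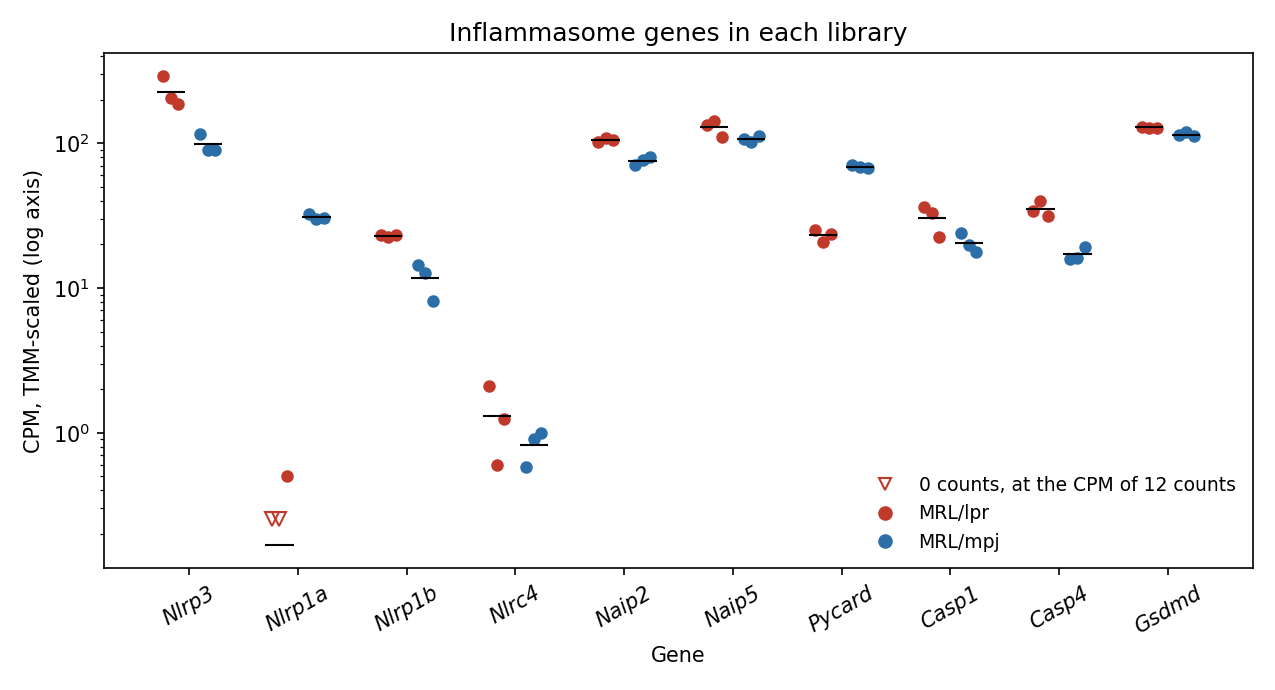
Level of each inflammasome gene in each library, in CPM scaled by TMM on a log axis. Points are libraries (MRL/lpr red, MRL/mpj blue), black lines are means of 3 libraries, and open triangles mark 0 counts, drawn at the level of 12 counts. Nlrp1a and Pycard lie lower in MRL/lpr and Nlrp3, Nlrp1b, Naip2 and Casp4 lie higher, each without overlap.

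Nlrp1a (ENSMUSG00000069830, GRCm38 chr11:71092236-71144704, minus strand) encodes a sensor whose activation in blood cell progenitors leads to their death. It had 0, 0 and 21 counts in MRL/lpr and 1680, 1505 and 1578 counts in MRL/mpj. The strains were thus separated completely and the only MRL/lpr counts were those of replicate 3. On the log2 scale the fold change was -7.61 (SE, the standard error, 0.90, adjusted p = 0.00399 by edgeR). Only 34 of the 19554 genes tested had a lower value. A floor of 12 counts, the worth of 3 read pairs, was taken in each library. The level was then at least 121.6-fold lower in each of replicates 1 and 2 than the MRL/mpj mean. In replicate 3 it was 61.8-fold lower.

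Nlrp1b (ENSMUSG00000070390, chr11:71153102-71230733, minus strand), the neighbouring paralog 8.40 kb away, encodes the sensor cleaved by anthrax lethal factor. It moved the other way, with 1101, 1052 and 971 counts in MRL/lpr and 740, 640 and 422 counts in MRL/mpj. Its level was 23.0 ± 0.571 CPM (SD, n = 3) against 11.8 ± 3.27 CPM (SD, n = 3). As a log2 fold change this was 0.97 (SE 0.19, adjusted p = 0.00616 by edgeR). The lowest MRL/lpr library lay above the highest MRL/mpj library, and MRL/mpj replicate 3 was the lowest of all.

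The ratio of Nlrp1b to Nlrp1a within a library does not depend on library scaling. Per kilobase of exon it was 0.291, 0.281 and 0.177 in MRL/mpj. In MRL/lpr it was at least 60.6, at least 57.9 and 30.6, with Nlrp1a set to the same floor where it had no counts. The exact two-sided permutation test over libraries gave p = 0.1, the smallest value that 3 against 3 libraries allow.

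The 250 bases before a RefSeq start of each gene (GRCm38.p6, written 5′ to 3′ on the minus strand) are shown because these neighbours moved in opposite directions while their upstream sequences are alike. Nlrp1a lies at chr11:71144705-71144954 and Nlrp1b at chr11:71230734-71230983, and capitals mark bases that differ between them or stand against a gap.
Nlrp1a: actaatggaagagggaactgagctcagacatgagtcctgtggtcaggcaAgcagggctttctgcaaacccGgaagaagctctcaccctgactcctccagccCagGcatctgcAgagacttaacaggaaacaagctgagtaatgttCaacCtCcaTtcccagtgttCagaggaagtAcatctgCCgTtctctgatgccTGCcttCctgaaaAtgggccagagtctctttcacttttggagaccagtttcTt
Nlrp1b: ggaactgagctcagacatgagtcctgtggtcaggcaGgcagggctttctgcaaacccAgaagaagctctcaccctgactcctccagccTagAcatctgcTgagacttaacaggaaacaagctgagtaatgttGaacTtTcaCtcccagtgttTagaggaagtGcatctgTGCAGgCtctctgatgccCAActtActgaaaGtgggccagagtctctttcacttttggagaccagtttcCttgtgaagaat
Of 237 aligned bases, 217 were identical (91.6%). The core motif of PU.1, a transcription factor of myeloid cells (GAGGAAGT, searched on both strands), stood 83 bases before the Nlrp1a start and 96 bases before the Nlrp1b start, in the part they share. The other RefSeq start of Nlrp1b had no match. The motif was found in 2.44% of 32851 RefSeq promoters of the same length. These are sequences of the C57BL/6J reference, and the MRL sequences were not analysed here.

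The pseudogene Nlrp1c-ps lies 11.7 kb beyond Nlrp1b. It had 15, 0 and 0 counts in MRL/lpr and 727, 819 and 891 counts in MRL/mpj, with a log2 fold change of -7.15 (SE 0.86, adjusted p = 0.00251 by edgeR). The outer genes of the cluster therefore had almost no counts in MRL/lpr, and the middle gene had counts in all 6 libraries. Summed over the 3 genes, a sum formed after the values were seen, the cluster gave 22.3 to 23.7 CPM in MRL/lpr and 55.6 to 61.2 CPM in MRL/mpj. Nlrp1b made up 97.9% to 100% of these counts in MRL/lpr and 14.6% to 23.5% in MRL/mpj.

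Reads of close relatives can be assigned to the wrong copy, so shared sequence was counted. Of the 75-base words in annotated Nlrp1a transcripts, 0.65% also occurred in another gene, all of them in Nlrp1b. Of the 6 tested genes before Nlrp1a, 6330403K07Rik was lower (log2 fold change -0.83, adjusted p = 0.0447 by edgeR) and the other 5, including Dhx33 and Derl2, did not pass. Beyond Nlrp1c-ps, Wscd1 was higher by 0.78 and the mitotic gene Pimreg by 2.71 on the log2 scale (adjusted p = 0.0107 and 5.92e-05). The authors counted both strains against a reference of another strain, and MRL/mpj reads did align to its Nlrp1a copy. The shared words are those of reference transcripts and do not show where reads of a differing copy align. The MRL/lpr sequence of the cluster was not analysed here. Fewer Nlrp1a or Nlrp1c-ps transcripts and MRL/lpr reads that fail to align to the reference copies therefore cannot be told apart. Likewise, MRL/lpr reads of other copies that align to Nlrp1b cannot be told apart from reads of Nlrp1b itself.

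**Figure D2:**
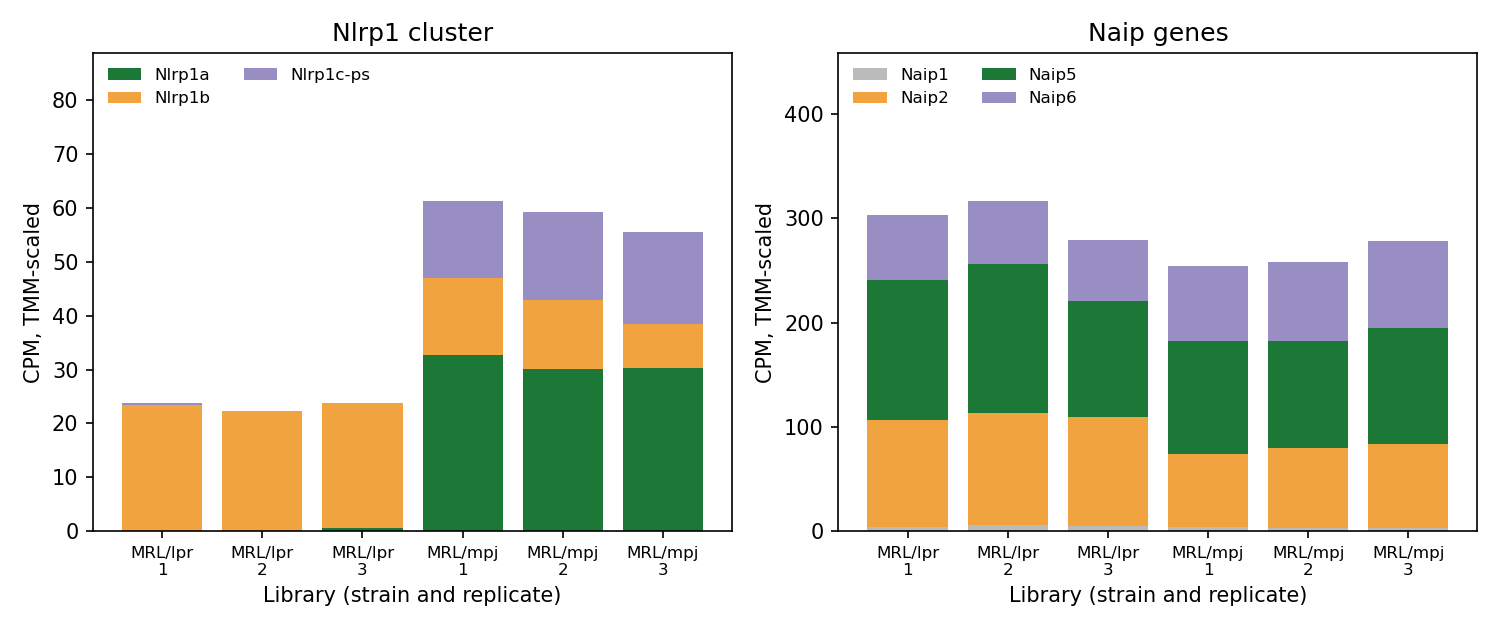
Summed level of the Nlrp1 cluster (left) and of the Naip genes (right) in each library, in CPM scaled by TMM, with the share of each gene in colour. In MRL/lpr Nlrp1b makes up at least 97.9% of the Nlrp1 counts, while the Naip sums of the strains lie closer together, at 279 to 316 CPM in MRL/lpr and 254 to 278 CPM in MRL/mpj.

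Pycard (ENSMUSG00000030793, chr7:127989708-127993867, minus strand) encodes ASC, the adaptor that NLRP3 needs in order to recruit caspase-1. It had 1189, 977 and 992 counts in MRL/lpr and 3617, 3434 and 3489 counts in MRL/mpj. Each MRL/lpr library lay far under each MRL/mpj library, and the spread within a strain was small. The level was 23.3 ± 2.30 CPM (SD, n = 3) against 68.7 ± 1.66 CPM (SD, n = 3). Pycard fell by 1.56 on the log2 scale (SE 0.10, adjusted p = 5.57e-06 by edgeR). This was the smallest adjusted p of the 10 genes, and 691 of 19554 genes had a lower log2 fold change. Over all alternatives the value stayed between -1.69 and -1.49.

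None of the 13 neighbouring genes tested around Pycard passed the test, among them Itgam (log2 fold change 0.09), which encodes CD11b, the protein used for the sort, and which the annotation overlaps with Gm49368, so that their counts are uncertain. The noncoding gene Gm45205 overlaps Pycard on the opposite strand, and 10.9% of the 75-base words of Pycard transcripts occur in it. Gm45205 had 15 to 100 counts in the 6 libraries. Whether the counting used strand is not given in the sources used here, so reads of these overlapping genes cannot be told apart. The 250 bases before the Pycard start (GRCm38.p6, chr7:127993868-127994117, minus strand) follow, with a match to the PU.1 core in capitals.
Pycard: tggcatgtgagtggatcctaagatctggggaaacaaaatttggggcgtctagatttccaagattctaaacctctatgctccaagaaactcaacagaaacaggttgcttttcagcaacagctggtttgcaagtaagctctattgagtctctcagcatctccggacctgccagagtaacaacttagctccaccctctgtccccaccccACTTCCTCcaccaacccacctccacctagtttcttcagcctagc
The match is the reverse complement of the letters given above and begins 44 bases before the start.

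Nlrp3 (ENSMUSG00000032691, chr11:59541568-59566956, plus strand) encodes the sensor that Pycard's product serves. It had 13633, 9688 and 7761 counts in MRL/lpr and 5972, 4489 and 4706 counts in MRL/mpj. The strains did not overlap, but MRL/lpr replicate 1 stood well above the other MRL/lpr libraries. Its level was 227 ± 55.3 CPM (SD, n = 3) against 98.8 ± 15.1 CPM (SD, n = 3), with a log2 fold change of 1.20 (SE 0.19, adjusted p = 0.00467 by edgeR). Without MRL/lpr replicate 1 the log2 fold change was 0.99, which still passed the p-value threshold but not the fold-change minimum. Nlrp3 lies 11.5 Mb from Nlrp1a on the same chromosome.

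Nlrp3 and Casp4 were the inflammasome genes higher by both criteria, and their upstream sequences are shown for that reason. The 250 bases before the upstream of 2 RefSeq starts of Nlrp3 lie at chr11:59541319-59541568 and those of Casp4 at chr9:5308599-5308848 (GRCm38.p6, plus strand), and capitals mark matches to the consensus motif of NF-kB, a factor that drives priming of Nlrp3.
Nlrp3: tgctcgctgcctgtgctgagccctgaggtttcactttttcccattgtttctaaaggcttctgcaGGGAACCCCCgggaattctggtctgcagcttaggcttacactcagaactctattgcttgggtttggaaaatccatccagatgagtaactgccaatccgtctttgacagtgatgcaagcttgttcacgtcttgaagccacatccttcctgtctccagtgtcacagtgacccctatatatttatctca
Casp4: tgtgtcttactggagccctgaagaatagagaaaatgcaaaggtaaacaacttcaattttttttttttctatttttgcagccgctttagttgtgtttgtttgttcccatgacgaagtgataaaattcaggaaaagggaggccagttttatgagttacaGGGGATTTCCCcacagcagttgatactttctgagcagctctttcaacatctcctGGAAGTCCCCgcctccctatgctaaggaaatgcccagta
The Nlrp3 match begins 186 bases before this start, and the window of the other Nlrp3 start held none. The Casp4 matches begin 93, 92 and 39 bases before the start, and the first and second of them overlap. Naip5, which did not pass the test, also held a match, 218 bases before its start. On both strands, this motif was found in 7.25% of 32851 RefSeq promoters of the same length. The interferon motifs ISRE (GAAA, NN and GAAA in a row, in 2.98% of promoters) and GAS (TTCNNNGAA, in 7.02%) were not found in the windows of the 9 genes with a RefSeq promoter. A match is a run of letters and was not tested for binding.

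Casp4 (ENSMUSG00000033538, chr9:5308828-5336783, plus strand), the gene of caspase-11, had 1608, 1888 and 1308 counts in MRL/lpr and 816, 809 and 1004 counts in MRL/mpj. The strains did not overlap. Its level was 35.2 ± 4.49 CPM (SD, n = 3) against 17.1 ± 1.89 CPM (SD, n = 3), with a log2 fold change of 1.04 (SE 0.13, adjusted p = 0.000376 by edgeR). The fold change lay close to the minimum of 1 and fell under it in some alternatives, down to 0.92.

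Casp1 (ENSMUSG00000025888, chr9:5298517-5307265, plus strand), 1.56 kb before Casp4, had 1713, 1549 and 946 counts in MRL/lpr and 1235, 994 and 916 counts in MRL/mpj. MRL/lpr replicate 3 lay within the MRL/mpj range once scaled, and the other MRL/lpr libraries lay above it. The log2 fold change of 0.58 (SE 0.18) had an adjusted p of 0.0574 by edgeR. Its adjusted p was 0.0163 with DESeq2 and 0.00516 without MRL/lpr replicate 3, and it ran up to 0.175 over the alternatives. The difference between the strains in the log2 ratio of Casp4 to Casp1 within a library was 0.47, with overlapping libraries and p = 0.2 from an exact two-sided permutation test. Casp12, the next gene, had a log2 fold change of 0.41 (adjusted p = 0.112 by edgeR), and none of the 12 neighbours tested around Casp1 and Casp4 passed.

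Gsdmd (ENSMUSG00000022575, chr15:75862327-75867408, plus strand) encodes the substrate of both caspases. Its counts were 6135, 6024 and 5363 in MRL/lpr and 5836, 5955 and 5838 in MRL/mpj. The level was 129 ± 1.36 CPM (SD, n = 3) against 115 ± 3.66 CPM (SD, n = 3), which did not overlap but differed little. The log2 fold change of 0.17 (SE 0.06) did not pass (adjusted p = 0.106 by edgeR) and came to 0.04 when libraries were scaled by their size alone.

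Naip2 (ENSMUSG00000078945, chr13:100144063-100202092, minus strand), which detects the rod protein of bacterial secretion systems, had 4838, 5098 and 4381 counts in MRL/lpr and 3619, 3834 and 4175 counts in MRL/mpj. The strains did not overlap, at 105 ± 2.74 CPM (SD, n = 3) against 75.8 ± 4.97 CPM (SD, n = 3). Naip2 rose by a log2 fold change of 0.48 (SE 0.08, adjusted p = 0.0019 by edgeR).

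Naip5 (ENSMUSG00000071203, chr13:100211739-100246323, minus strand), a flagellin detector 9.65 kb away, had 6311, 6705 and 4649 counts against 5533, 5131 and 5810 counts. MRL/lpr replicate 3 overlapped the MRL/mpj libraries. The log2 fold change of 0.27 (SE 0.10) did not pass with all libraries (adjusted p = 0.0834 by edgeR) and was 0.37 without MRL/lpr replicate 3 (adjusted p = 0.00251). Per kilobase of exon, the ratio of Naip5 to Naip2 was 1.21, 1.22 and 0.988 in MRL/lpr and 1.42, 1.25 and 1.30 in MRL/mpj. All MRL/lpr ratios were lower, with a mean log2 difference of -0.22 and p = 0.1 from an exact two-sided permutation test, the smallest it allows.

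Naip6, another flagellin detector, fell by 0.35 on the log2 scale (adjusted p = 0.0123 by edgeR), and Naip1 had a log2 fold change of 0.41 (adjusted p = 0.233). Of the 13 neighbours tested around Naip2 and Naip5, 3 were lower, Naip6 among them, and 0 were higher. Among all genes tested, 9.06% were lower and 11.1% higher. The log2 fold changes of the 13 ran from -0.60 to 0.41. Of the summed counts of Naip1, Naip2, Naip5 and Naip6, Naip2 held 34.0% to 37.5% in MRL/lpr and 27.7% to 29.7% in MRL/mpj, and Naip6 held 19.0% to 21.1% and 28.5% to 29.7%. Of the 75-base words of Naip5 transcripts 23.8% also occur in other genes, and of those of Naip2 10.7%, mostly in other Naip genes. The counting could have split reads among these copies, so single values are uncertain.

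Nlrc4 (ENSMUSG00000039193, chr17:74425438-74459142, minus strand), the partner through which NAIP proteins signal, was scarce. It had 99, 28 and 52 counts in MRL/lpr and 30, 45 and 52 counts in MRL/mpj. The strains overlapped, and the log2 fold change of 0.67 had an SE of 0.51 (adjusted p = 0.423 by edgeR). MRL/lpr replicate 1 was the highest library and MRL/lpr replicate 2 among the lowest.

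Levels of different genes were compared in the deposited FPKM, which divide by gene length. In MRL/mpj the order was Gsdmd (mean 45.0 FPKM), Nlrp3 (22.7), Naip5 (19.2), Pycard (16.8), Naip2 (14.5), Nlrp1a (6.93), Casp1 (6.07), Casp4 (4.28), Nlrp1b (1.73) and Nlrc4 (0.157). Only Nlrp1a and Casp1 overlapped with their neighbour in this order. In MRL/lpr Nlrp3 (mean 48.1 FPKM) and Gsdmd (46.4) came first with overlapping libraries. They were followed by Naip5 (21.3) and Naip2 (18.6), which overlapped, by Casp1 (8.39) and Casp4 (8.12), which overlapped, and by Pycard (5.23), Nlrp1b (3.12), Nlrc4 (0.233) and Nlrp1a (0.0333), which stood apart. By these FPKM, Pycard thus stood above Naip2 in MRL/mpj and under both caspases in MRL/lpr. Nlrp1a came last in MRL/lpr.

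The FPKM of Casp1 rests on a length about 2.35 times its exons in GENCODE M21, where the other 9 genes gave ratios of 1.12 to 1.15, so its place beside other genes depends on the annotation. The place of Pycard does so too. Its exons, merged over all annotated transcripts, cover 3800 bases, most of its locus. If its reads came mainly from a shorter transcript, its FPKM and its ratios to other genes would be too low. Transcript lengths were not analysed. Pycard was set against its partners in each library, ratios formed after the values were seen and given without a test. Per length, the ratio of Pycard to Nlrp3 was 0.0931, 0.107 and 0.136 in MRL/lpr and 0.647, 0.817 and 0.792 in MRL/mpj. The ratio of Pycard to Gsdmd was 0.101 to 0.121 and 0.361 to 0.388. In both ratios the strains lay far apart, and the values within a strain were close.

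Other genes of the pathway were taken from a list of 48 genes, of which 44 passed the filter on low counts. In MRL/lpr, 16 were higher and 3 were lower at an adjusted p under 0.05 by edgeR, with a median log2 fold change of 0.41. Past both criteria, 7 were higher and 1, Nlrp1c-ps, was lower. Over all genes tested, the shares were 11.1% higher and 9.06% lower, and 4.67% and 3.66% past both criteria. Nlrp9b, Gsdmc and Gsdma were listed at 0 in each library, and Nlrp6 had 4 to 18 counts and was not tested.

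The largest increases on this list were in genes that act before the sensors, where 6 of 14 were higher and 1 was lower. Zbp1, a sensor of Z-form nucleic acids that can engage NLRP3, had 947, 1032 and 856 counts in MRL/lpr and 50, 64 and 72 counts in MRL/mpj. This was a log2 fold change of 4.10 (SE 0.17, adjusted p = 8.41e-07 by edgeR). Gbp3, Irgb10 and Gbp2, interferon-induced GTPases that coat bacteria and expose lipopolysaccharide, rose by 2.98, 2.07 and 1.33 on the log2 scale (adjusted p = 1.06e-07, 0.000123 and 1.49e-05). Their relative Gbp5 did not follow, with 1023, 1264 and 804 counts against 1242, 1290 and 1250 counts and a log2 fold change of -0.12 (adjusted p = 0.574). P2rx7, the ATP-gated channel that triggers NLRP3, fell by 0.83 (adjusted p = 0.0131), with 5470, 6279 and 5231 counts against 8418, 11622 and 13983 counts. P2rx7, Pycard and Nlrp3, which belong to the same route, thus changed in different directions.

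Among 13 other sensors, 11 were tested, 3 were higher and 2 were lower. Nlrc5, a regulator of MHC class I genes, rose by 2.04 and Nod2, a receptor for bacterial muramyl dipeptide, by 1.08 on the log2 scale (adjusted p = 2.36e-05 and 0.000699 by edgeR). Aim2, the sensor of cytosolic DNA that also needs ASC, had 6524, 5976 and 4747 counts in MRL/lpr and 4186, 4565 and 3517 counts in MRL/mpj, with a log2 fold change of 0.66 (adjusted p = 0.00372). The lower genes were Nlrp1c-ps and Naip6.

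Of the 5 cytokine substrates and inhibitors, Il1b and Il1a were higher and none was lower. Il1b had 2411, 2545 and 2178 counts in MRL/lpr and 1652, 1614 and 1827 counts in MRL/mpj. It rose by 0.66 on the log2 scale (adjusted p = 0.000421 by edgeR), and Il1a, which is not a caspase-1 substrate, rose by 0.88 (adjusted p = 0.000211). Il18 had a log2 fold change of 0.03 (SE 0.18, adjusted p = 0.934), with 550, 795 and 514 counts against 805, 623 and 619 counts. The libraries overlapped for Il18 and were separate for Il1b.

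Mlkl, the pore-forming protein of necroptosis, rose 2.01-fold and its kinase Ripk3 1.41-fold (adjusted p = 0.0285 and 0.0157 by edgeR). Of 5 inhibitors, Trim30a and Tnfaip3, which restrain NLRP3 and NF-kB signalling, rose by 0.93 and 0.64 (adjusted p = 3.97e-05 and 0.00271). Ninj1, the protein that ruptures the membrane after pore formation, had a log2 fold change of 0.68 (adjusted p = 0.111), and Gsdme 0.01 with 0.974.

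**Figure D3:**
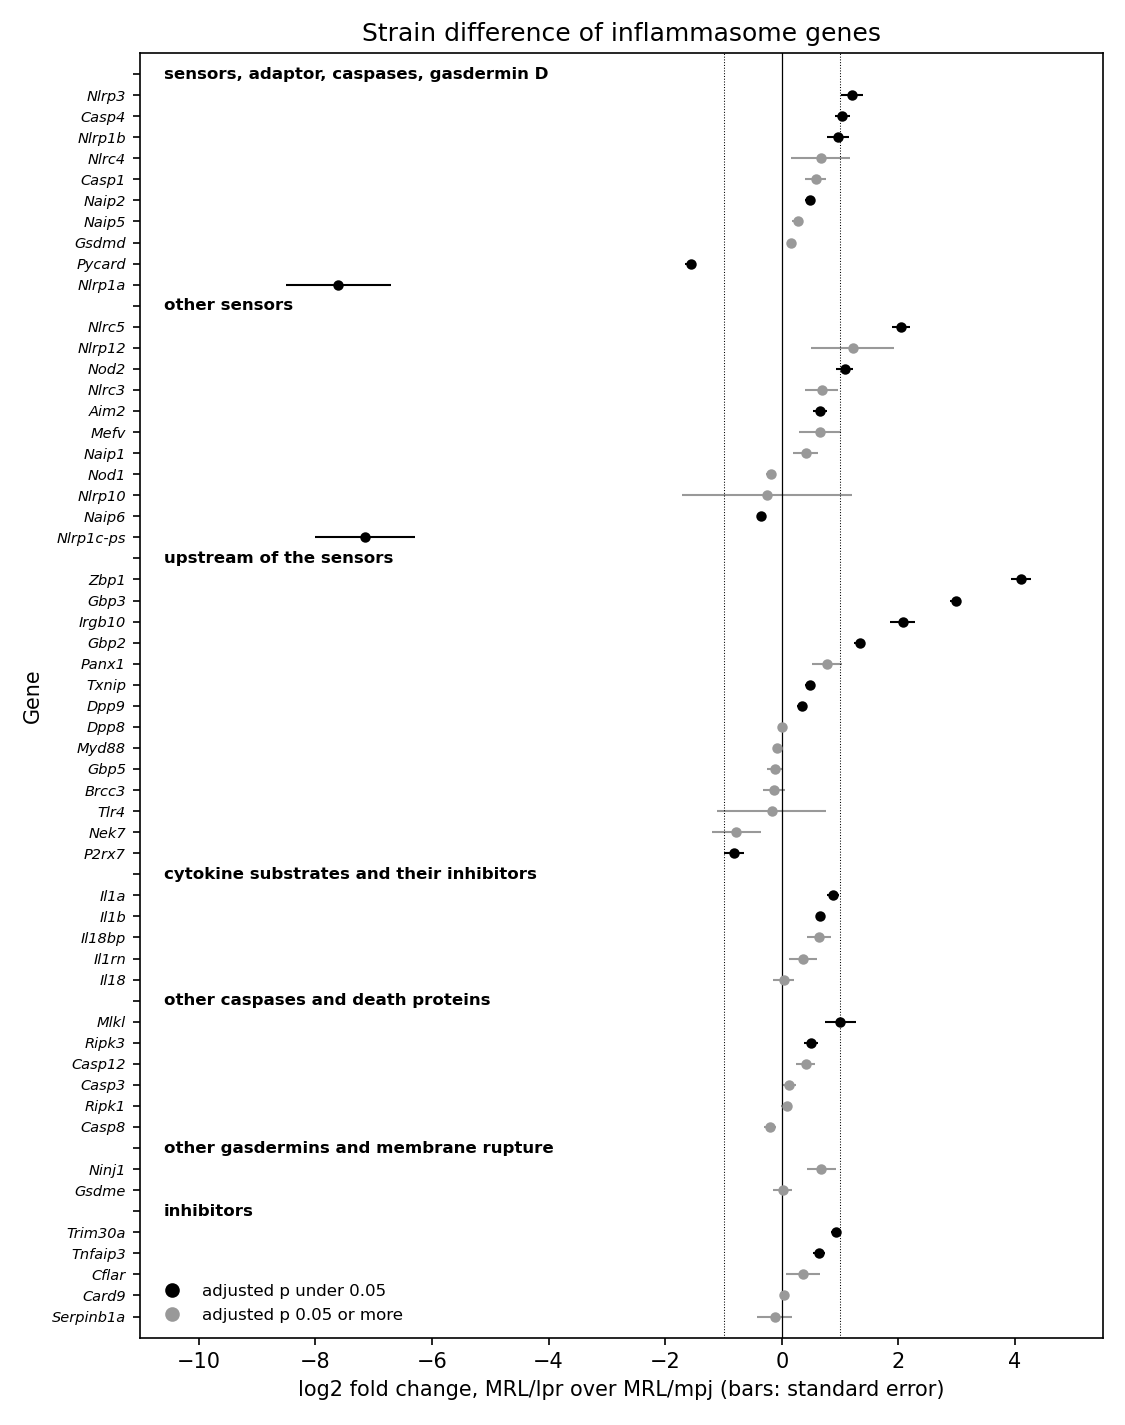
The log2 fold change (MRL/lpr over MRL/mpj, x axis) of the 10 inflammasome genes and of listed pathway genes that were tested, grouped by role, with standard errors as bars and dotted lines at -1 and 1. Black points have an adjusted p under 0.05, and they run from -7.61 for Nlrp1a to 4.10 for Zbp1.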

How the data were processed

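Bulk RNA-seq covered sorted microglia of both strains in 3 libraries each, grouped by title. According to the submitters' processing notes and the methods, the authors trimmed reads with Cutadapt and aligned them with HISAT2 2.0.4 to GRCm38, and the notes also name Cufflinks and Cuffdiff 2.2.1. The methods describe mRNA purification and the labels removal of ribosomal RNA with a stranded kit. The counting tool, its strand setting and its annotation are not given in the sources used here. Counts were deposited by the authors as raw whole numbers for each gene, beside their deposited FPKM for the 30602 genes with at least 1 count. Symbols and positions came from GENCODE M21 (GRCm38), which matched 55141 of 55401 identifiers. Irgb10 is annotated there as Gm12250. Promoters came from RefSeq (GRCm38.p6).

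Counts were tested with edgeR 4.0.16 in R 4.3.3 without covariates (filterByExpr, TMM, robust quasi-likelihood test, Benjamini-Hochberg adjustment over all 19554 genes). Alternatives were DESeq2 1.42.0, other normalizations and filters, counts divided by 4, dispersions that are not robust, a replicate block, each library left out and ratios of mean FPKM. Genes are named by a rule: the 10 members, and of the other pathway genes those past both criteria, Aim2, Il1b, Il18 and annotated neighbours. Other genes, and the neighbours of Pycard, were chosen after their values were seen. The members, lists and motifs were chosen with earlier results of these data known. Between replicates of a strain, the median squared difference was 2.21 to 5.04 times what counting noise of read pairs (4 counts each) gives, so each library was counted on its own. The edgeR fit, and no other step, was tested on simulated counts drawn with the dispersions of these data. Some genes counted in the totals are not reported here by name or plotted.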

Additional observations from a re-analysis of the deposited data

How the results depend on the processing

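Of 160 values of the 10 inflammasome genes under the alternatives, none changed direction and 152 stayed on their side of the threshold or within the spread. Casp1 passed the threshold with DESeq2 (log2 fold change 0.57), with at least 50 counts required in 3 libraries (0.59), with counts divided by 4 (0.59) and with the replicate block (0.56). Without each library in turn it ranged from 0.44 to 0.76, passing without MRL/lpr replicate 3, and Naip5 ranged from 0.19 to 0.37, passing without the same library, so that 6 of the 10 genes were then higher. From mean FPKM the log2 ratio was 0.35 for Naip2 and 0.045 for Gsdmd. The fitted value of Nlrp1a was -13.58 without MRL/lpr replicate 3, when its MRL/lpr counts are all 0 and the value depends on the prior count. The number of the 10 genes higher past both criteria was 1 with scaling by library size only, and 1 to 2 without each library, with 1 without MRL/lpr replicate 1 (Nlrp3 at 0.99) or without MRL/lpr replicate 2. The number of pathway genes lower past both criteria was 1 to 2 without each library, with 2 without MRL/mpj replicate 1. Of all genes tested, 2790 were lower with scaling by library size only, against 1772, and 1177 to 1971 without each library, the lowest without MRL/mpj replicate 1. That scaling moved the median of all genes from -0.01 to -0.13. The 21 ratios of paralogs kept their direction, including that of Nlrp1b to Nlrp1a with a floor of 3 counts, added after seeing the data. Its FPKM ratio was not compared, since Nlrp1a is listed at 0 in MRL/lpr replicates 1 and 2. The cause of these shifts was not tested. Same-numbered libraries of the strains did not deviate together (correlations of -0.04, -0.02 and -0.03), and no library correlated best with its own number. With the replicate block, 1754 genes were higher and 1309 lower, against 2178 and 1772. Depth sets the bounds given for Nlrp1a, whose MRL/lpr counts rest on few read pairs.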

Other observations

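A few pathway genes had counts that jumped in single libraries, chosen after their values were seen. Tlr4, the surface receptor for lipopolysaccharide, had 332 counts in MRL/lpr replicate 2 and 738 counts in MRL/mpj replicate 2, against 2039 to 2855 counts in the other 4 libraries. Nek7, the kinase that binds NLRP3, had 2083 counts in replicate 1 of MRL/lpr, where the other replicates had 6182 and 4625 counts, and 7920 to 8760 counts in MRL/mpj. Cflar, an inhibitor of caspase-8, had 6367 counts in MRL/mpj replicate 2, against 10629 to 14289 in the other 5 libraries. None of these genes passed edgeR's test between the strains.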
